A study of Mus musculus with 24 samples.

Results

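Dynein, dynactin and kinesin are the machinery that carries cargo along microtubules. The genes described here are the protein-coding entries whose symbols start with Dync or Dynl, or with Dctn, Kif or Klc followed by a digit. There were 56 of them among 15456 genes, 13913 of which are protein coding. The set holds 5 core subunits and 6 light chains of cytoplasmic dynein 1, 2 genes of cytoplasmic dynein 2, 6 dynactin subunits and 36 kinesin heavy or light chains. The remaining symbol, Kif1bp, matches the pattern but stands for a kinesin-binding protein, not for a motor. Of the 56 genes 55 reached a mean of 10 normalized counts and were tested. The mitotic kinesin Kif20b, with a mean of 8.63, was not.

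RNA was sequenced from the medial prefrontal cortex (mPFC) of 24 BALB/C mice (male BALB/c OlaHsd according to the methods) at postnatal week 11, with 6 mice per group and 1 library per mouse. Control mice are labelled as having no treatment. According to the methods, controls received PBS in the volume of the drug injections and were gavaged with PBS. The other groups received duloxetine, a serotonin and norepinephrine reuptake inhibitor used against depression, by daily i.p. injection, the live gut bacterium Ruminococcus flavefaciens by repeated gavage, or both. The tissue was a punch of cortex, so that fewer cells of a type and less RNA per cell cannot be told apart. The study asked how the bacterium bears on the response to duloxetine. The deposited values are normalized counts, that is, reads counted per gene and divided by 1 factor per mouse, and between 12811413 and 15607343 reads were recovered per mouse.

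Microtubules in an axon point with their plus ends to the terminal. Most kinesins walk towards the plus end and carry vesicle precursors, mitochondria and RNA granules outwards, whereas dynein, together with dynactin, returns endosomes, autophagosomes and neurotrophin signals to the cell body. In dendrites, where microtubules run both ways, both kinds of motor deliver receptors. Other kinesins build the mitotic spindle or depolymerize microtubules, and dynein 2 serves transport inside cilia.

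Neuronal markers were abundant in every mouse. The 5 excitatory neuron markers summed to 84020 ± 2810 normalized counts in control mice (SD, n = 6), with Camk2a the most abundant, and the 3 inhibitory ones to 7228 ± 315.1. Some libraries stood apart. R. flavefaciens mouse 8.4 held 830.06 normalized counts of choroid plexus and ependyma markers, against 35.46 to 179.27 in the other mice, and 4159.81 of striatum markers, against 1022.47 to 2359.32. R. flavefaciens mouse 9.3 lay farthest from its group, with a median absolute deviation of 0.1638 on the log2 scale, against 0.0671 to 0.1242 in the other 23 mice. In mouse 9.3 longer transcripts were lower relative to the mean of all mice, with a Spearman correlation of -0.529 across genes, which are not independent replicates. This correlation ranged from 0.114 to 0.244 in control mice and from -0.084 to 0.226 with duloxetine. With R. flavefaciens the range was -0.529 to 0.109, and with both treatments -0.166 to 0.101. Values without mouse 9.3 are given below beside the results with the bacterium that it changes most.

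Kinesin-1, the main plus-end motor of axons, held 37.3 percent of the summed level per kb of transcript of the 56 genes. Its neuronal heavy chain Kif5a was the highest of all, with 8637 ± 1366 normalized counts per kb (SD, n = 24), and the light chain Klc1, which links the motor to cargo, followed with 4798 ± 249.2. The third was Kif1a, a kinesin-3 that carries synaptic vesicle precursors, with 4354 ± 323. Dynein light chains held 18.4 percent, led by Dynll2 with 4002 ± 198.6. Kinesin-3 held 15.1 percent, dynactin 11.6 percent and the dynein 1 core 7.66 percent. The heavy chain Dync1h1, the force-producing subunit of dynein, had 1022 ± 118.3 normalized counts per kb. The spindle kinesins together held 0.0933 percent. The 3 lowest genes, Kif4, Kif15 and Kif20b, which act in dividing cells, had 3.158, 2.865 and 1.571 normalized counts per kb. Of the 56 genes 32 exceeded 100 per kb and 12 were under 10. The order was fine-grained, since only 4 of 55 neighbouring pairs had ranges over the 24 mice that did not overlap. Those were Kif5a above Klc1, Dynll2 above Kif1b, Kif2a above Kif3b, and Dync2li1 above Kif17. Kif5a ranged widely between mice, from 35238.81 to 63111 normalized counts.

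**Figure D1:**
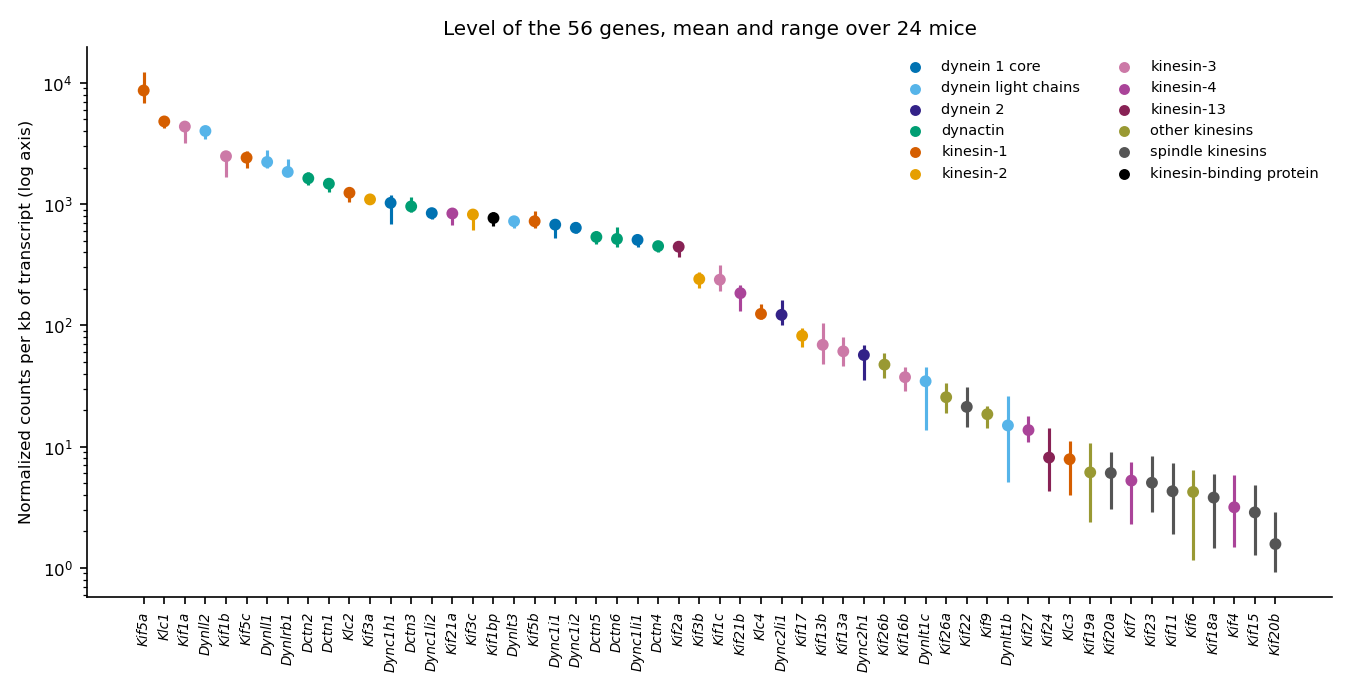
Level of each of the 56 genes in normalized counts per kb of transcript, on a log axis. Points are means and lines the range over 24 mice, coloured by role, and Kif5a stands at 8637 at the top while Kif20b stands at 1.571 at the bottom.

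The spread of Kif5a went with the amount of myelin RNA in the tissue. The summed level of 5 oligodendrocyte markers (Mbp, Mog, Mag, Mobp and Cnp), all present in every mouse and led by Mbp, ranged from 7526.97 to 31298 normalized counts between mice. It varied within every group, from 8667.15 to 23116.7 in control mice, 9544.55 to 27638.9 with duloxetine, 7829.86 to 28361.5 with R. flavefaciens and 7526.97 to 31298 with both. In mouse 12.4, with the lowest sum, Kif5a had 35339.71 normalized counts, and in mouse 12.2, with the highest, 63111. Across the 24 mice, with both measures on the log2 scale, Pearson's r was 0.859 and Spearman's rho 0.848 (permutation test with 100000 resamples, p = 1e-05, the smallest it can give, adjusted p = 0.000554 for Pearson's r and 0.00054 for rho over 14968 genes). Among mice of the same group, with group means subtracted, r was 0.894. Without the mice farthest from the median sum on the log2 scale, 12.4 and 7.2, Pearson's r over all groups was 0.823.

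The kinesins with this relation are named after their values were seen. Past an adjusted p of 0.05, 6 of 55 genes had a positive and 3 a negative r, whereas over all genes 5.62 percent were positive and 5.92 percent negative, so that the share of negative motor genes was near that of all genes. Besides Kif5a, the positive genes were the kinesin-3 members Kif13b (r = 0.906, adjusted p = 0.000554), Kif13a (r = 0.86, adjusted p = 0.000554) and Kif1c (r = 0.847, adjusted p = 0.000554), the ubiquitous kinesin-1 heavy chain Kif5b (r = 0.798, adjusted p = 0.000554) and Kif7 (r = 0.559, adjusted p = 0.0411), a kinesin of the hedgehog pathway, all by the same permutation test. For Kif7 rho did not pass (adjusted p = 0.0848). Kif13b had 400.96 normalized counts in mouse 12.4 and 751.37 in mouse 12.2. The negative genes were 3 of the 4 members of kinesin-2, a motor of dendrites and cilia. Kif3a had r = -0.716 (adjusted p = 0.00355), Kif3b r = -0.645 (adjusted p = 0.0107) and Kif3c r = -0.577 (adjusted p = 0.0286), by the same permutation test. The other kinesin-2 gene, Kif17, did not pass (r = -0.291, adjusted p = 0.381, same permutation test). The synaptic kinesin Kif1a and the dynein heavy chain were not among the genes past adjustment either. The points share their libraries, and the part of oligodendrocytes in these levels was not tested.

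**Figure D2:**
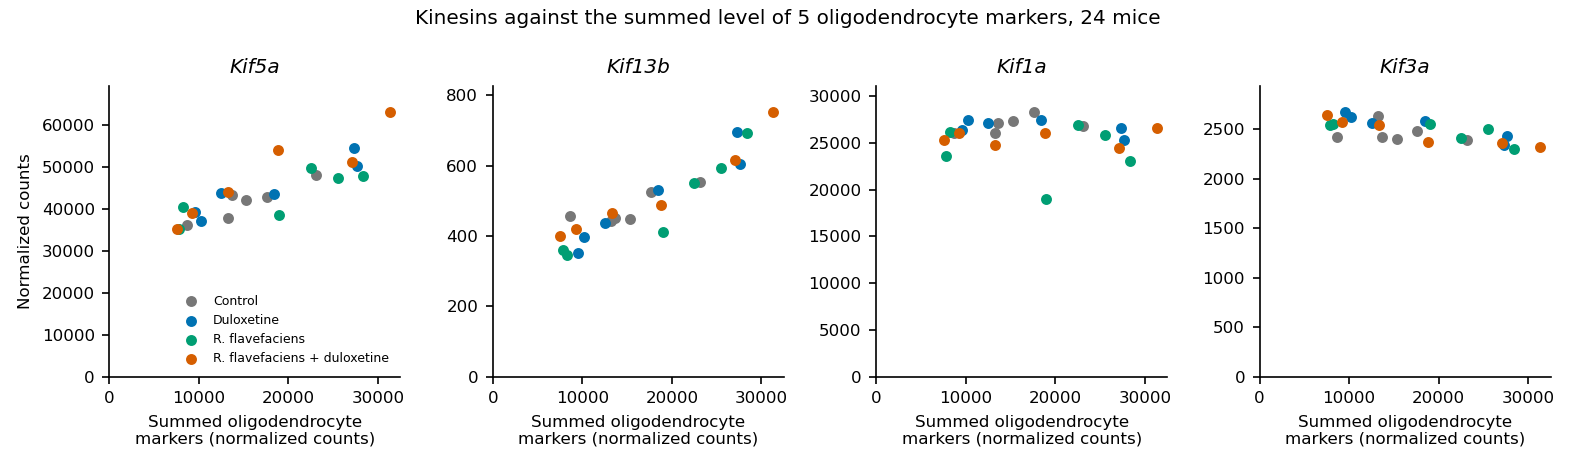
Normalized counts of Kif5a, Kif13b, Kif1a and Kif3a in 24 mice against the summed normalized counts of 5 oligodendrocyte markers, coloured by group. Kif5a and Kif13b increase with the marker sum (r = 0.859 and 0.906 on the log2 scale), Kif3a decreases (r = -0.716), and mice of all 4 groups lie along the same trend.

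No motor gene passed an adjusted p of 0.05 between groups. In limma's fit across 14974 genes, 0 of 55 were called in each of the 6 comparisons, against 0.0267 percent of all genes for R. flavefaciens against control, 0.1 percent for both treatments against control and 2.23 percent for both treatments against R. flavefaciens. The share over all genes was 0.0 percent for duloxetine against control, 0.0 percent for both treatments against duloxetine and 0.0 percent for the interaction. Against control the smallest p-values were those of the dynein heavy chains and Dctn1, and their values follow. All p-values measure the spread between mice, and comparisons with control share the same 6 mice. The first number of the mouse labels, whose meaning is not given, differs between groups, so that it cannot be told apart from treatment.

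With R. flavefaciens alone, 5 genes had a higher and 8 a lower level at an unadjusted limma p under 0.05 (9.09 and 14.5 percent of 55), near the 8.86 and 10.8 percent of all genes. The median log2 fold change was -0.006, against 0.003 over all genes. On recovered reads, edgeR called 0 motor genes, where it called 4 of 14974 genes. DESeq2 called 2, Dync2h1 and Dync1h1, where it called 5.6 percent of all genes with an adjusted p.

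Dync1h1 (ENSMUSG00000018707.13, 12:110601452-110666945) encodes the heavy chain of dynein 1. It had 15100.2, 15911.5 and 17079.3 normalized counts in the lowest, median and highest control mouse, and 9817.35, 14000.2 and 15019.6 with R. flavefaciens. Every mouse given the bacterium alone lay below every control. Its log2 fold change was -0.27 ± 0.075 (SE), or -17 percent, with adjusted p = 0.0795 by limma and p = 0.00216, the smallest possible, in an exact permutation test of 6 against 6 mice. Without mouse 9.3 it was -0.18 (limma, adjusted p = 0.203), and with the trend on transcript length removed -0.06 (limma, adjusted p = 0.655). Its transcript, with 14342 bases, is the longest of the set.

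Dync2h1 (ENSMUSG00000047193.16, 9:6928503-7184446) encodes the heavy chain of the ciliary dynein 2. Control mice had 807.89, 855.735 and 938.8 normalized counts, and mice given R. flavefaciens 475.2, 693.04 and 804.3. Again the groups did not overlap. The log2 fold change was -0.35 ± 0.0881 (limma, adjusted p = 0.0727, exact permutation p = 0.00216). Without mouse 9.3 it was -0.25 (limma, adjusted p = 0.16), and with the length trend removed -0.15 (limma, adjusted p = 0.231). The only other gene without overlap was Kif9, which serves motile cilia, with 44.68 to 50.85 normalized counts in control mice and 50.88 to 61.17 with R. flavefaciens (log2 fold change 0.19, limma, adjusted p = 0.306, exact permutation p = 0.00216). That makes 1 gene higher and 2 lower without overlap, where 0.788 and 0.835 percent of all genes were so.

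Other dynein 1 core subunits differed little. The log2 fold changes were -0.03 for the intermediate chain Dync1i1, 0.04 for Dync1i2, -0.06 for the light intermediate chain Dync1li1 and -0.07 for Dync1li2. The smallest of their adjusted p-values was 0.378 (limma).

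Of 6 light chains, which bridge dynein to cargo, 2 were above control at an unadjusted limma p under 0.05 and 0 below, where 8.86 and 10.8 percent of all genes were. Without mouse 9.3 there were 0, and with the length trend removed 0. Dynll1 had 2748.28, 2987.51 and 3304.37 normalized counts in control mice and 2954.18, 3230.84 and 3863.65 with R. flavefaciens. The groups overlapped, with 2 treated mice above all controls, and the log2 fold change was 0.14 ± 0.0544 (limma, adjusted p = 0.155). Dynlrb1 had 1257.76, 1274.22 and 1436.59 in control mice and 1293.18, 1423.09 and 1735.94 with the bacterium. Its log2 fold change was 0.14 ± 0.0543 (limma, adjusted p = 0.164). Without mouse 9.3 those of Dynll1 and Dynlrb1 were 0.10 and 0.09 (limma, adjusted p = 0.455 and 0.48). The log2 fold changes of Dynll2 and Dynlt3, 0.02 and 0.003, were within their SE of 0.048 and 0.0447.

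Dynactin, which joins dynein to its cargo and makes it processive, had 2 of 6 subunits above control at an unadjusted limma p under 0.05 and 0 below, against the same 8.86 and 10.8 percent of all genes, and 0 without mouse 9.3 or with the length trend removed. Dctn3, a subunit of the shoulder, had 830.93, 861.415 and 899.74 normalized counts in control mice and 864.82, 917.515 and 1054.18 with R. flavefaciens (log2 fold change 0.12 ± 0.0516, limma, adjusted p = 0.183). Dctn6, a subunit of the pointed end, had 0.14 ± 0.0634 (limma, adjusted p = 0.219), and Dctn2 0.09 ± 0.0444 (limma, adjusted p = 0.28). Dctn1, the large p150Glued subunit that binds dynein and microtubules, had -0.07 ± 0.0415 (limma, adjusted p = 0.392). Without mouse 9.3 Dctn3 and Dctn6 both had 0.09 (limma, adjusted p = 0.49 and 0.563).

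Kif1b, a kinesin-3 that carries mitochondria and synaptic vesicle precursors, was among the kinesins below control. It had 17512.2, 18193.7 and 18860.1 normalized counts in control mice and 11735.4, 16110 and 18920.5 with R. flavefaciens. The spread with the bacterium was wide, with 4 mice below all controls and 1 above them, and the log2 fold change was -0.21 ± 0.0735 (limma, adjusted p = 0.127, exact permutation p = 0.0823). Kif1a had -0.17 ± 0.0609 (limma, adjusted p = 0.129) and Kif21a, a kinesin-4 that slows microtubule growth, -0.16 ± 0.059 (limma, adjusted p = 0.151). Without mouse 9.3 these became -0.13, -0.10 and -0.12. Kif26a, an atypical kinesin, had -0.29 ± 0.1046 (limma, adjusted p = 0.133). Kif24, which acts at the base of cilia, had -0.45 and Kif3c -0.16, at adjusted p-values of 0.145 and 0.209 (limma), and without mouse 9.3 -0.33 and -0.09 (limma, adjusted p = 0.436 and 0.564). Kinesin-1 stayed near control. Kif5a had 36158.6, 42575.2 and 48101.8 normalized counts in control mice and 35238.8, 43996.4 and 49760.1 with the bacterium (log2 fold change 0.04 ± 0.1188, limma, adjusted p = 0.881). The log2 fold changes of Kif5b, Kif5c, Klc1 and Klc2 were 0.05, -0.05, 0.03 and -0.02, those of Kif3a and Kif3b 0.01 and -0.10, and that of the microtubule depolymerase Kif2a -0.06, none with an unadjusted limma p under 0.05.

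Among spindle kinesins Kif11, which pushes spindle poles apart, had 9.25, 15.78 and 19.98 normalized counts in control mice and 14.25, 27.06 and 32.54 with R. flavefaciens. Its log2 fold change was 0.61 ± 0.2438 (limma, adjusted p = 0.164), and 0.60 without mouse 8.4. The 3 markers of dividing cells present in the table, led by Mki67, summed to 52.59 ± 13.77 in control mice and 68.61 ± 44.94 with R. flavefaciens, with 151.88 in mouse 8.4. None of these 3 was at 0 in any mouse, and their part in the level of Kif11 was not tested.

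**Figure D3:**
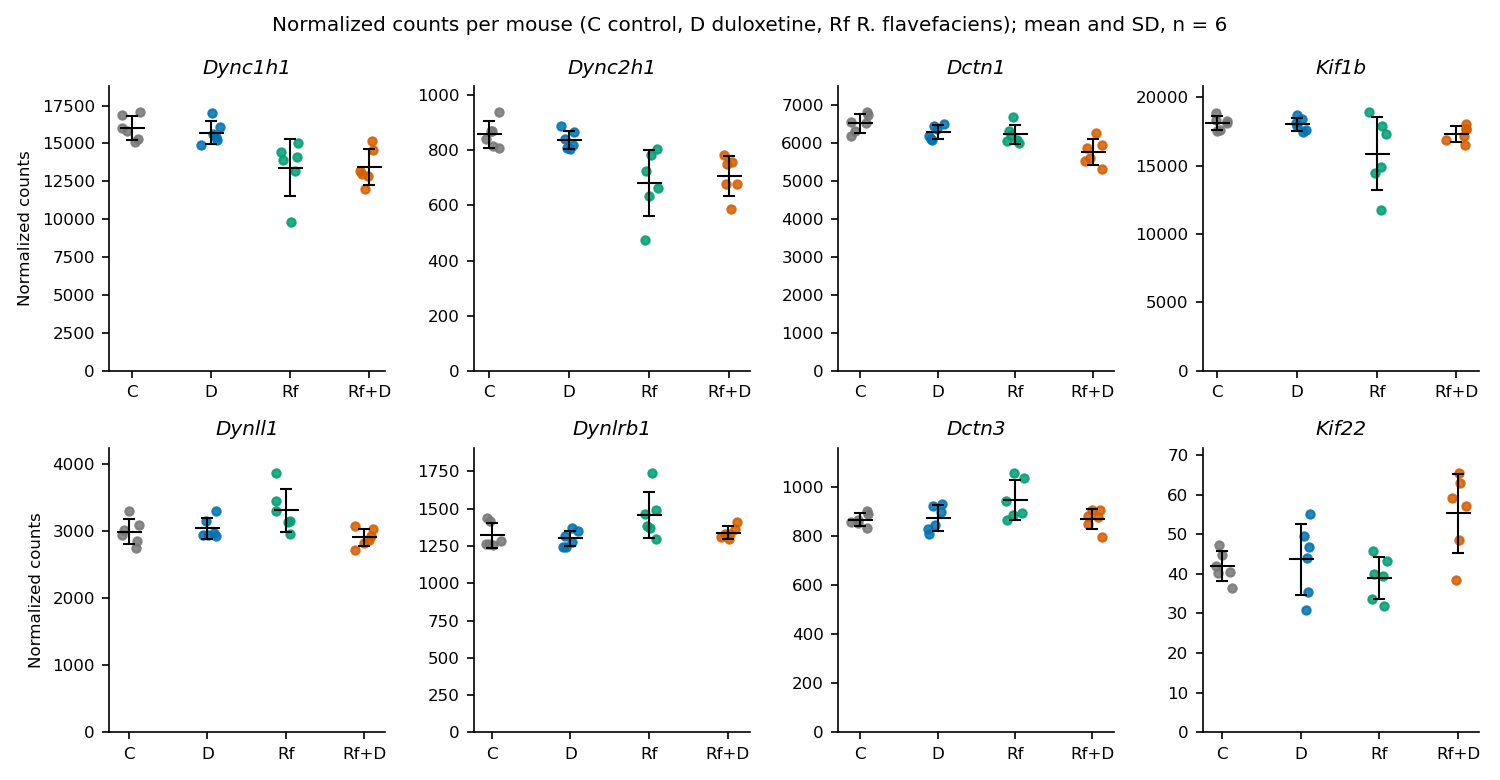
Normalized counts of 8 motor genes in each mouse, with mean and SD (n = 6) for control (C), duloxetine (D), R. flavefaciens (Rf) and both (Rf+D). For Dync1h1 and Dync2h1 all mice given R. flavefaciens alone lie below all control mice, and the lowest Dync1h1 value, 9817.35, is mouse 9.3.

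Transcript length went with these differences. Among the 55 genes the Spearman correlation of length with the log2 fold change for R. flavefaciens against control was -0.479, and over 14958 genes it was -0.446, both across genes, which are not independent replicates. The 24 motor genes under 3000 bases had a median of 0.032 and the 12 of at least 6000 bases a median of -0.138, of which 11 were below 0. Over all genes the same classes had medians of 0.053 and -0.138. With the length trend removed, 3 motor genes in place of 13 had an unadjusted limma p under 0.05, and without mouse 9.3 there were 7. Over all genes the counts fell too, from 1327 higher and 1612 lower to 886 and 929 with the length trend removed and to 806 and 918 without mouse 9.3. For both treatments against control the correlations were -0.21 and -0.253, and the classes of the motor genes had medians of 0.004 and -0.049. There the count of genes at an unadjusted limma p under 0.05 went from 12 to 15 with the length trend removed, of which 12 in place of 9 were lower. Over all genes, lower ones went from 1307 to 1784 and higher ones from 1210 to 894, and the median of all genes moved to -0.026. The part of RNA integrity or of library preparation in this was not tested.

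**Figure D4:**
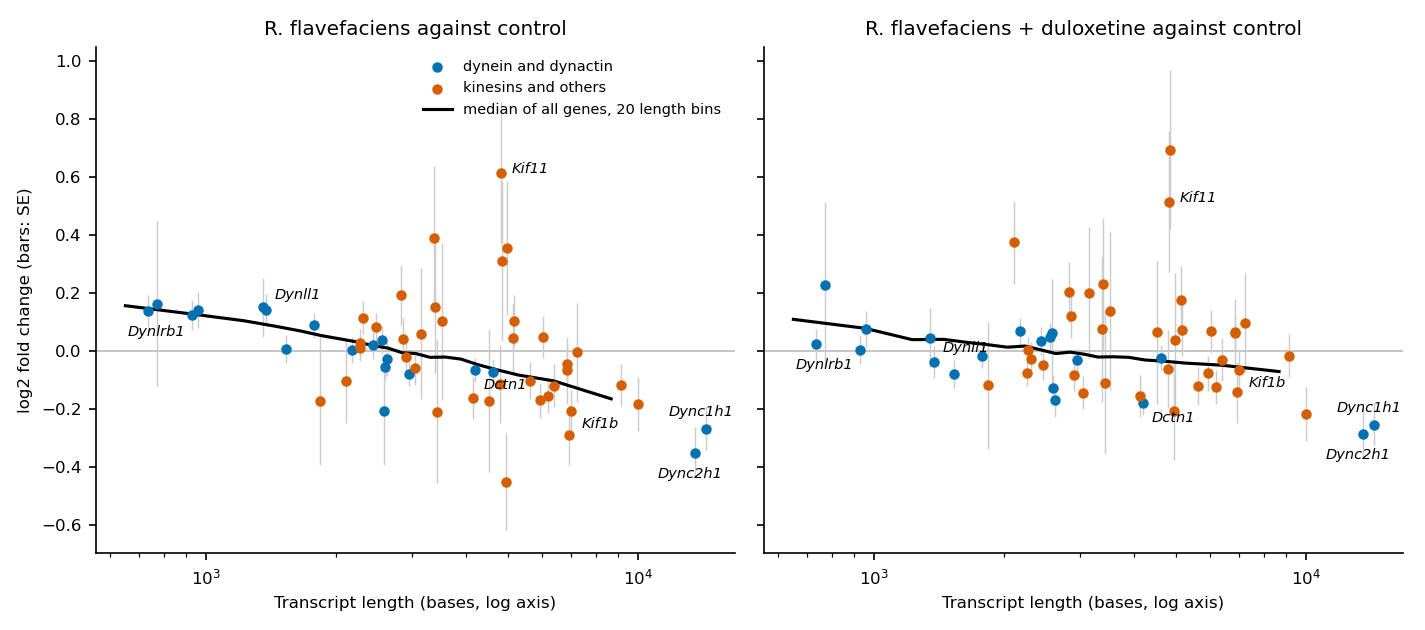
Log2 fold change with its SE (y axis) of 55 motor genes against transcript length in bases (log axis), for the bacterium alone (left) and with duloxetine (right) against control. The line is the median of all genes in 20 length bins, and Dync1h1 and Dync2h1, the longest transcripts, lie below 0 at the far right of both panels.

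The start regions of 4 subunits described above, a heavy chain and 3 small subunits, are shown so that their sequences can be compared, although none of these genes passed adjustment. They are the 100 bases before the RefSeq start (GRCm38.p6), 5′ to 3′ on the gene's strand, of the heavy chain Dync1h1 (chr12:110601295-110601394, plus strand), the light chains Dynll1 (chr5:115300991-115301090, minus strand) and Dynlrb1 (chr2:155236433-155236532, plus strand, the first of 2 entries), and the dynactin subunit Dctn3 (chr4:41723164-41723263, minus strand). Capitals mark matches on either strand to the letters CCAAT. They also mark the GC box, written GGGCGG, and the cAMP response element, written TGACGTCA. The matches do not overlap here, and the window of Dync1h1 holds none.
Dync1h1: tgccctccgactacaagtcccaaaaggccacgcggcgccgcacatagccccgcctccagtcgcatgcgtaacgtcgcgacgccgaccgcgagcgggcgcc
Dynll1: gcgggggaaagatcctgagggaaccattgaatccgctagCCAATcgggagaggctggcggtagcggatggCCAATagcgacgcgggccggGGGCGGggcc
Dynlrb1: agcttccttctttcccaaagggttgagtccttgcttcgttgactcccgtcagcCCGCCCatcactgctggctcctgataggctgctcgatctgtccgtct
Dctn3: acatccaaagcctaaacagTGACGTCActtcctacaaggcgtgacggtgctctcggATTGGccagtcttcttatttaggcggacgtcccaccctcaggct
The windows hold 17, 10, 5 and 6 CpG dinucleotides and are 71, 68, 57 and 54 percent G or C. In windows of 250 bases, RefSeq had 49 start entries for 42 of the 56 genes. GGGCGG was in 65.3 percent of them, against 32.7 percent of all 32851 entries, CCAAT in 40.8 against 33.8 percent, TATAAA in 8.16 against 12.4 percent and TGACGTCA in 8.16 against 1.55 percent. The 4 genes with TGACGTCA were Dctn3, Kif17, Kif5c and Klc1. These are letter matches, searched on both strands. The background of all entries was not limited to genes with counts here, so it cannot show whether a difference is particular to motor genes.

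With both treatments, 3 genes were higher and 9 lower than control at an unadjusted limma p under 0.05 (5.45 and 16.4 percent of 55), against 8.08 and 8.73 percent of all genes. On rescaling to the 75th percentile they were 5 and 7, where 1757 and 694 of all genes were. With quantile normalization they were 2 and 6, where 1028 and 989 of all genes were. The median log2 fold change was -0.017, against 0.001 over all genes. Here edgeR called 0 motor genes, where it called 17 of 14974 genes. DESeq2 called 1, Dctn1, where it called 1.68 percent of all genes with an adjusted p.

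Dctn1 (ENSMUSG00000031865.16, 6:83165920-83200117) came closest to the threshold. It had 6162.85, 6528.77 and 6807.48 normalized counts in control mice and 5317.98, 5722.93 and 6248.86 with both treatments. Of the 6 mice given both, 5 lay below all controls, and the log2 fold change was -0.18 ± 0.0415, or -11.7 percent (limma, adjusted p = 0.0596, exact permutation p = 0.00433). With the length trend removed it was also -0.18, and with quantile normalization -0.11 (limma, adjusted p = 0.168, the highest over 12 alternatives). In the fit without mouse 9.3, which lies in neither group but enters the common spread, the adjusted p was 0.0338 (limma).

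Both heavy chains were again below control. Dync1h1 had 11967.7, 13108.3 and 15192.7 normalized counts with both treatments, and 5 of 6 mice lay below all controls (log2 fold change -0.26 ± 0.075, limma, adjusted p = 0.123, exact permutation p = 0.00433). Dync2h1 had 586.39, 714.155 and 781.11, without overlap with control (log2 fold change -0.29 ± 0.0881, limma, adjusted p = 0.129, exact permutation p = 0.00216). With the length trend removed they were -0.20 (limma, adjusted p = 0.061) and -0.23 (limma, adjusted p = 0.0473). In the fit without mouse 9.3 the adjusted p-values were 0.0254 and 0.0347 (limma), and in a fit of only the groups compared 0.0466 and 0.0471 (limma).

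The dynein 1 core was lower in 4 of 5 subunits, 3 of them at an unadjusted limma p under 0.05, where 7457 of 14974 genes were lower and 8.73 percent were so at that p. Dync1i1 had 1725.38, 1867.84 and 1880.6 normalized counts in control mice and 1373.96, 1691.78 and 1747.94 with both (log2 fold change -0.17 ± 0.0574, limma, adjusted p = 0.156). Dync1li1 had -0.13 ± 0.046 (limma, adjusted p = 0.178), whereas Dync1i2 had 0.05 and Dync1li2 -0.03. Of 6 light chains 0 were higher or lower at an unadjusted limma p under 0.05, with 2 higher on quantile normalization and 2 lower with the length trend removed. Dynll1, Dynlrb1 and Dctn3 had -0.04, 0.02 and 0.004 (limma, smallest adjusted p = 0.737).

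Of the kinesins, Kif3c lay below control without overlap, with 3500.85 to 3767.15 normalized counts in control mice and 2956.09 to 3470.77 with both (log2 fold change -0.16 ± 0.0727, limma, adjusted p = 0.284, exact permutation p = 0.00216). Kif9 lay above, with 54.33 to 57.1. Without overlap were thus 1 gene higher and 2 lower, where 0.882 and 1.16 percent of all genes were so. Kif2a had -0.15 ± 0.0575 (limma, adjusted p = 0.219), Kif21a -0.13 and Kif26b -0.22, and the synaptic kinesins Kif1a and Kif1b had -0.08 and -0.07. Kif5a had 35339.7, 47764.7 and 63111 normalized counts with both (log2 fold change 0.17 ± 0.1188, limma, adjusted p = 0.465), and with the oligodendrocyte marker sum as a covariate 0.145 (limma, adjusted p = 0.198). The log2 fold changes of Kif5b, Kif5c, Klc1, Klc2, Kif3a and Kif3b were 0.07, 0.06, -0.08, -0.09, 0.003 and -0.12.

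Spindle kinesins were above control in 6 of 6 genes tested, where 7517 of 14974 genes were, with a median log2 fold change of 0.302. At an unadjusted limma p under 0.05 there were 3, where 8.08 percent of all genes were higher. With quantile normalization the median was 0.185 and 0 genes had such a p. Kif22, which binds chromosomes, had 36.53, 41.29 and 47.3 normalized counts in control mice and 38.41, 58.07 and 65.34 with both, and 5 of 6 mice lay above all controls (log2 fold change 0.37 ± 0.143, limma, adjusted p = 0.202). Kif15 had 0.69 ± 0.2744 (limma, adjusted p = 0.218) and Kif11 0.51 ± 0.2438 (limma, adjusted p = 0.288). At levels of 6.23 to 35.32 normalized counts per mouse for Kif15 and Kif11, counting error is part of their spread. Dividing-cell markers summed to 61.32 ± 27.77 with both.

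With duloxetine alone the values lay near control. By limma, 0 genes were higher and 0 lower at an unadjusted p under 0.05, where 2.2 and 1.63 percent of all genes were. Neither edgeR nor DESeq2 called a motor gene, where they called 0 and 1 of all genes. The smallest unadjusted p was that of Kif26b (log2 fold change -0.16, limma, adjusted p = 1). Dync1h1 had 14892.6, 15547.9 and 16986 normalized counts, within the range of control but for the lowest mouse, and Dynll1 2936.86, 2962.89 and 3310.12.

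Against duloxetine, both treatments together had 3 genes higher and 4 lower at an unadjusted limma p under 0.05, where 3.02 and 2.88 percent of all genes were. The lower genes were the dynein and dynactin members Dctn1 (-0.13), Dync1h1 (-0.23), Dync1i1 (-0.17) and Dync2h1 (-0.25), each with an adjusted p of 0.816 (limma). Neither edgeR nor DESeq2 called a motor gene, where they called 0 and 1 of all genes. Dync2h1 did not overlap, with 805.35 to 887.07 normalized counts under duloxetine, where 0.127 percent of all genes were lower and 0.127 percent higher without overlap. The higher genes were Kif17, a dendritic kinesin-2 that carries NMDA receptor subunits (0.18), Kif22 (0.34) and Kif15 (0.63).

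Against R. flavefaciens alone, both treatments together had 1 gene higher and 9 lower at an unadjusted limma p under 0.05, where 9.76 and 9.9 percent of all genes were. Without mouse 9.3 there were 1 and 4, where 1216 and 1203 of all genes were, and in a fit of only these 2 groups 1 and 2, where 1058 and 940 of all genes were. Kif22 was higher (log2 fold change 0.48 ± 0.143, limma, adjusted p = 0.0689). Dynll1 was lower, with 2727.58, 2903.79 and 3076.61 normalized counts (log2 fold change -0.18 ± 0.0544, limma, adjusted p = 0.0702). Its highest value with R. flavefaciens alone, 3863.65, was that of mouse 9.3. Over 12 alternatives the log2 fold change of Dynll1 ranged from -0.196 to -0.136. Its adjusted p (limma, edgeR or DESeq2) ranged from 0.0367 to 0.223. DESeq2 called Kif22 and Dynll1, where it called 4.07 percent of all genes. By edgeR 0 motor genes were called, where 327 of 14974 genes were. Dctn1 (-0.11), Kif1bp (-0.13), Dync1i1 (-0.14) and Klc4 (-0.14) followed, with adjusted p-values from 0.129 to 0.176 (limma). Without mouse 8.4 Dync1i1 had -0.19 and an adjusted p of 0.0401 (limma). Dync1h1 had 0.01 and, without mouse 9.3, -0.07. The interaction of the treatments had 1 gene higher and 3 lower, where 3.86 and 3.67 percent of all genes were: Kif22 (0.44), Dynll1 (-0.21), Kif4 (-0.69) and Kif1bp (-0.15), with adjusted p-values from 0.639 to 0.647 (limma). For the interaction, edgeR and DESeq2 called 0 motor genes, where each called 0 of all genes.

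**Figure D5:**
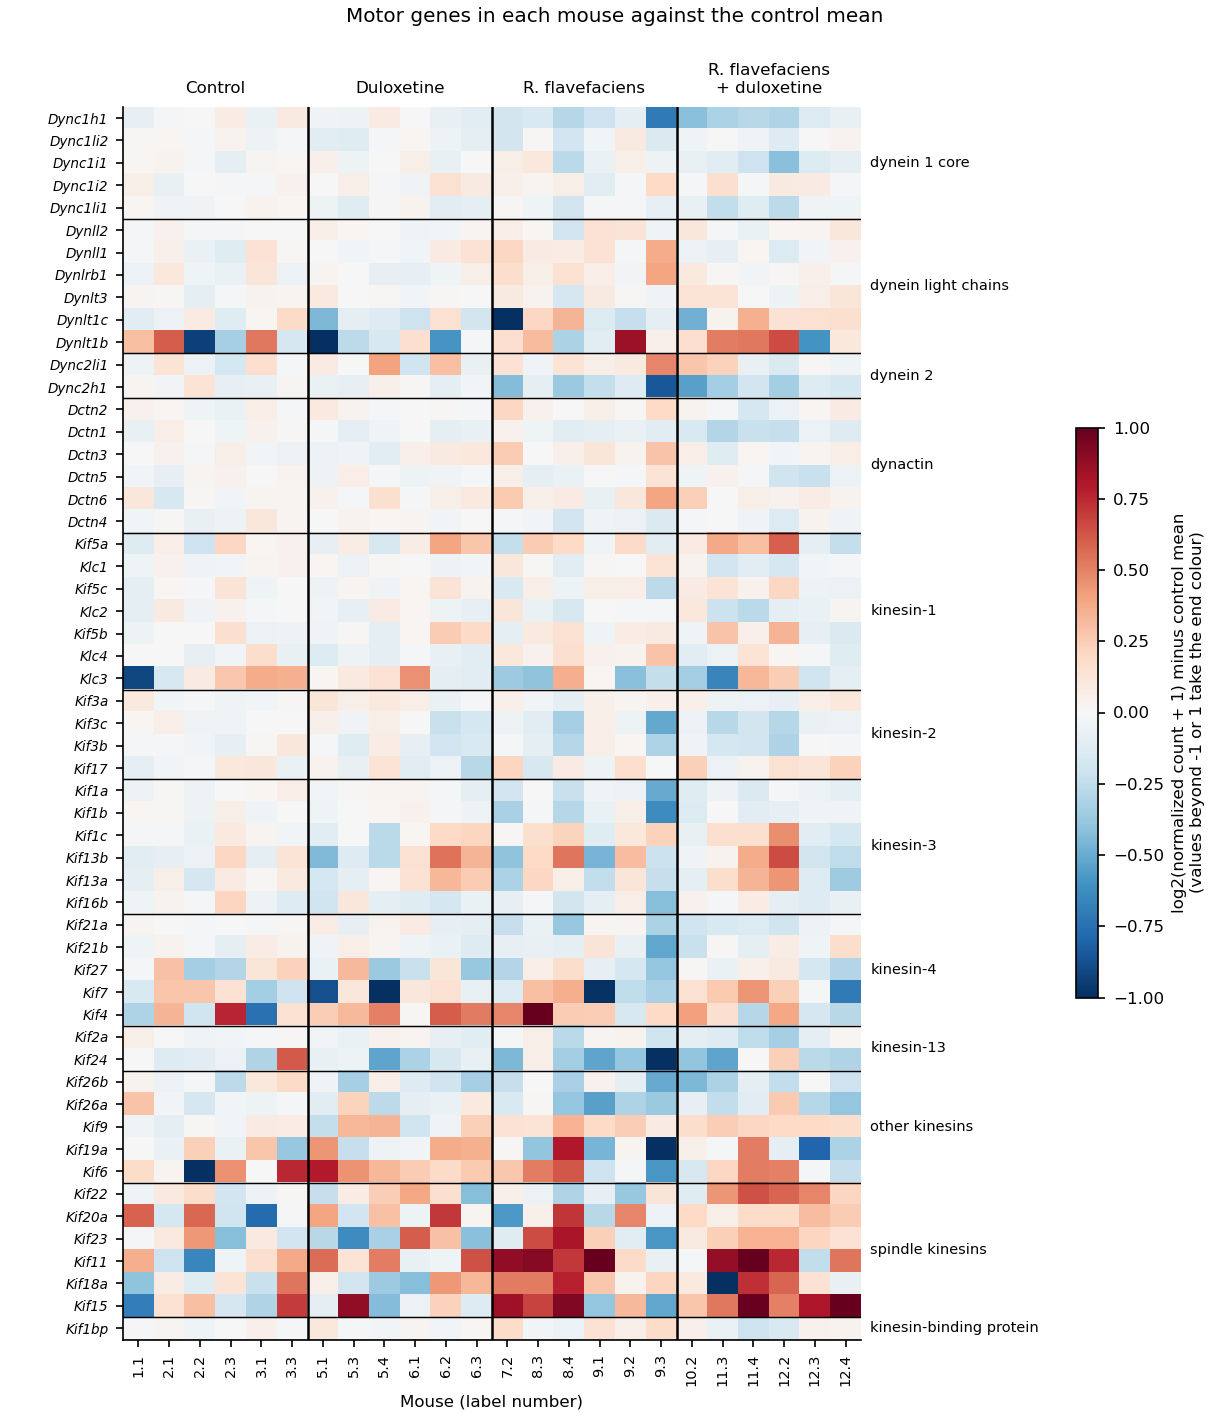
Log2(normalized count + 1) minus the control mean, for the 55 genes tested (rows, by role) in 24 mice (columns, by group), where red is above and blue below control. Dync1h1 and Dync2h1 are blue across both groups given R. flavefaciens, most in mouse 9.3, and the low spindle kinesins vary most between mice.

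The tracks and regulators of the motors were described from lists of other genes, with the same shares of all genes as background (8.86 percent higher and 10.8 percent lower with R. flavefaciens, 8.08 and 8.73 percent with both). Against control, the 22 dynein adaptors and regulators had 1 gene higher and 5 lower at an unadjusted limma p under 0.05 with R. flavefaciens, and 1 and 2 with both treatments. Without mouse 9.3 the counts with R. flavefaciens were 1 and 0. None passed adjustment in either. Bicdl1, an adaptor for secretory vesicles, had 0.16 and Bicd2, an adaptor for Golgi vesicles and nuclei, -0.14 with R. flavefaciens, and Ndel1, the partner of Lis1, had -0.20 (limma, adjusted p = 0.072) and Rab11fip3 -0.15 with both. The 20 kinesin partners had 2 higher and 3 lower with R. flavefaciens, with Kidins220 at -0.23 (limma, adjusted p = 0.0795) and the lysosome linker Arl8a at 0.09, and 0 higher and 5 lower with both, with Mapk8ip2 at -0.12 and Madd at -0.16.

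Of 12 tubulins, the building blocks of the track, 1 was higher and 0 lower with R. flavefaciens, Tuba1b at 0.14, and Tubb2b had 0.15 (limma, adjusted p = 0.387). With both treatments 1 was higher and 5 lower, with Tuba4a at -0.19 and Tubb2b at 0.24. Of 18 microtubule-associated proteins 2 were higher and 5 lower with R. flavefaciens, with Map1b at -0.29 (limma, adjusted p = 0.0745) and the tubulin-binding Stmn4 at 0.20 (limma, adjusted p = 0.0806), and 1 and 3 with both, with Map6 at -0.16 and Map1s at -0.14.

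Motors outside the set did not share one direction. Of 19 myosins, which walk on actin, 0 were higher and 5 lower with R. flavefaciens, with Myo5a at -0.31 (limma, adjusted p = 0.0873) and Myo9a at -0.28, whereas 3 were higher and 1 lower with both, with Myo19 at 0.39 and Myo18a at -0.13. Without mouse 9.3, the counts with R. flavefaciens were 1 higher and 1 lower for kinesin partners, 0 and 0 for tubulins, 2 and 3 for microtubule-associated proteins, and 0 and 3 for myosins. With the length trend removed the counts with R. flavefaciens were 0 higher and 1 lower for dynein adaptors, 0 and 1 for kinesin partners, 0 and 0 for tubulins, 1 and 2 for microtubule-associated proteins, and 0 and 1 for myosins. With both treatments the lower tubulins were then 8, and 1 on rescaling to the 75th percentile. Of 14 axonemal dyneins, which beat cilia, 2 were higher and 2 lower than control with R. flavefaciens, and 2 and 2 with both. Without mouse 9.3 they were 1 and 0 with R. flavefaciens. Dnah10 had 0.46 and 0.79 (limma, adjusted p = 0.178 and 0.072), Dnah5 -0.37 with R. flavefaciens and Dnah7c 0.40 with both. Compared with R. flavefaciens alone, both treatments together had 0 tubulins higher and 8 of 12 lower at an unadjusted limma p under 0.05. Over all genes 9.76 and 9.9 percent were so. Without mouse 9.3 the lower tubulins were 4, and in a fit of only these 2 groups 1. None passed adjustment in the main fit, and 3 did with the oligodendrocyte covariate, where 750 of 14974 genes passed in place of 334. Kinesin partners had 1 higher and 3 lower, and myosins 3 and 0. Between both treatments and R. flavefaciens alone, 4 genes of these lists passed adjustment, all higher with both, 2 of 22 adaptors, 1 of 18 microtubule-associated proteins and 1 of 19 myosins, where 2.23 percent of all genes passed in either direction. They were the adaptors Hook1 (log2 fold change 0.28 ± 0.0712, limma, adjusted p = 0.0393) and Bicd2 (0.22 ± 0.056, limma, adjusted p = 0.0404), the dendritic Map2 (0.28 ± 0.0763, limma, adjusted p = 0.0485) and the mitochondrial myosin Myo19 (0.54 ± 0.1369, limma, adjusted p = 0.0356). In a fit of only these 2 groups, 0 of all genes passed adjustment (limma), and without mouse 9.3 none of these 4 genes passed, with 178 of all genes in place of 334. Hook1 had 772 ± 75.51 normalized counts with R. flavefaciens, 934.6 ± 86.33 with both and 868.8 ± 87.23 in control mice (SD, n = 6).

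Microglia markers were above control in 5 of 5 genes in each treated group, and so were the 5 oligodendrocyte markers. Astrocyte markers were above control in 5 of 5 genes with duloxetine, 4 with R. flavefaciens and 5 with both, and endothelial markers in 3 of 4 in each group. Higher at an unadjusted limma p under 0.05 were 4 microglia markers with duloxetine, 3 with R. flavefaciens and 4 with both, where 2.2, 8.86 and 8.08 percent of all genes were. In the same order there were 0, 0 and 0 oligodendrocyte, 0, 0 and 2 astrocyte, and 1, 0 and 1 endothelial markers. None of these markers passed adjustment. Oligodendrocyte markers summed to 15270 ± 4845 in control mice, 17600 ± 8253 with duloxetine, 18570 ± 8737 with R. flavefaciens and 17880 ± 9680 with both. Astrocyte markers, led by Slc1a3, summed to 11910 ± 627.9, 12440 ± 1355, 12820 ± 1057 and 13440 ± 2223 in the same order, microglia markers, led by Csf1r, to 3229 ± 167, 3579 ± 327.5, 3600 ± 258.5 and 3724 ± 498.6, and endothelial markers, led by Flt1, to 2308 ± 129.2, 2490 ± 349.1, 2482 ± 97.61 and 2536 ± 426.6. Excitatory neuron markers summed to 84020 ± 2810, 84870 ± 3336, 82970 ± 5486 and 85940 ± 4123, with Camk2a carrying most of the sum. By gene, 4 of 5 were below control with R. flavefaciens (median log2 fold change -0.068) and 4 of 5 with both (median -0.117), with 1 and 0 at an unadjusted limma p under 0.05. The part of these cells in the motor gene levels was not tested.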

How the data were processed

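Poly(A) RNA was sequenced and, per the methods, mapped by the authors with TopHat2 to GRCm38.p5, and the submitters' processing notes name TopHat2 2.1.0, Bowtie2 2.2.6, DESeq2 1.18.1 and mm9. The program that counted reads and its use of strand are not given in the sources used here. The deposited signal values are normalized counts, and the value of 1 read in each mouse (the reciprocal of the authors' size factor) was recovered as the step of which 99.997 percent of 370875 values were whole multiples within 0.0051. Recovered reads had a median of 14455107 per mouse, with group medians of 13591497 (control), 14536037 (duloxetine), 13943370 (R. flavefaciens) and 14621655 (both). Gene positions come from the deposited table and matched GENCODE vM21 (GRCm38) for 52 of 56 genes. Transcript length is the median over protein-coding transcripts of vM21. Reads of the near-identical Dynlt1b and Dynlt1c may be split.

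Groups were compared by limma 3.58.1 (R 4.3.3, trend on the mean), with log2(value + 1) as the response. The 14974 genes whose mean reached 10 entered a single fit of all 24 mice, two-sided, with Benjamini-Hochberg adjustment over all genes within each of 6 comparisons. Fold changes are on that log2 scale. Single genes were also tested by exact two-sided permutation over 924 groupings of 6 against 6 mice, for 55 genes in 5 comparisons, unadjusted. Alternatives were a pseudocount of 0.1, no filter, a fit of the compared groups alone, rescaling to the 75th percentile, quantile normalization, edgeR 4.0.16 and DESeq2 1.42.0 on recovered reads, a loess correction for length (span 0.3), a random block by the first number of the label, and leaving out mouse 9.3. A covariate for oligodendrocyte markers and leaving out mouse 8.4 were chosen after seeing the data, as were the relation to these markers and the promoter motifs. The fits were tested on simulated data. Other steps used Python 3.11.15, numpy 2.4.6, pandas 2.3.3, scipy 1.17.1 and matplotlib 3.10.9.

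Members and lists were chosen with earlier results of these data known. The text names 23 core motor genes, in each comparison the 5 higher and 5 lower members with the smallest unadjusted p under 0.05, the 3 highest and 3 lowest per kb, and of each other list the genes past adjustment and the 2 with the smallest p in both comparisons of the bacterium with control. Kif3c, Kif7, Kif9, Kif13a, Kif13b, Kif1c, Kif24, and for both treatments against control Kif26b, are named outside this rule. One oligodendrocyte marker of the list is not reported here and entered no sum.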

Additional observations from a re-analysis of the deposited data

Results flagged for a closer look

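Of 36 named motor genes in 4 groups, 8 of 144 sets of 6 mice held a mouse far from the others, where chance gives about 1 in 20. In R. flavefaciens mouse 9.3 Dync1h1 had 9817.35 normalized counts, against 13171.37 to 15019.65 in the other 5 mice. With both treatments, Dctn6 had 555.48 in mouse 10.2, against 472.53 to 497.51. With duloxetine, Dynlt3 had 1653.84 in mouse 5.1. The other 5 sets were in the control group. Kif26a had 231.64 and Kif3a 2632.17 in mouse 1.1, Kif5b had 4699.12 in mouse 2.3, Klc4 323.13 in mouse 3.1 and Kif24 70.47 in mouse 3.3, in each case above the other controls.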

How the results depend on the processing

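With 6 mice a group and recovered reads from 12811413 to 15607343 per mouse, the limits below hold for all comparisons. For duloxetine against control and for both treatments against duloxetine, no alternative called a motor gene, nor for the interaction. Elsewhere the 0 calls of limma moved. For R. flavefaciens against control there were 2 with DESeq2 and 1 with the random block (Dync2h1, consensus correlation of -0.045). For both treatments against control there were 2 with only the groups compared, 1 with DESeq2, 1 with the block (Dctn1), 1 with the length trend removed (Dync2h1), 3 without mouse 9.3 (Dctn1, Dync1h1 and Dync2h1) and 1 with the oligodendrocyte covariate (Dctn1). For both treatments against R. flavefaciens there were 2 with DESeq2, 2 with the block (Kif22 and Dynll1), 1 with the length trend removed (Dctn1), 1 with the covariate (Dynll1) and 1 without mouse 8.4 (Dync1i1). Calls over all genes rose in each of these fits. For R. flavefaciens against control they went from 4 to 497 with DESeq2 and 221 with the block, for both treatments against control from 15 to 196 with only the groups compared, 217 with DESeq2, 59 with the block, 32 with the length trend removed, 123 without mouse 9.3 and 114 with the covariate, and against R. flavefaciens from 334 to 610, 533, 485, 750 and 577 in the order above. The 13 genes at an unadjusted p under 0.05 for R. flavefaciens against control became 3 with the length trend removed and 7 without mouse 9.3. The 10 for both treatments against R. flavefaciens became 3 with only the groups compared, 5 without mouse 9.3 and 12 without mouse 8.4. The 4 of the interaction became 2 with edgeR, 2 with DESeq2 and 6 without mouse 8.4, of which 5 were lower. Without mouse 8.4, 720 of all genes were higher and 619 lower for the interaction, in place of 578 and 550. Medians moved by more than the SD between mice of 0.0316 in 3 cases, for both treatments against control to 0.018 on rescaling to the 75th percentile, where the median of all genes moved to 0.035, and with the length trend removed to -0.016 against R. flavefaciens and -0.029 for the interaction. The log2 fold change of Dync1h1 for both treatments against R. flavefaciens turned to -0.138 with the length trend removed and -0.072 without mouse 9.3, and its interaction to -0.126 and -0.044, whereas without mouse 8.4 they were 0.012 and 0.041. The causes were not tested. No paired analysis was possible because mice of different groups share no label number. For the interaction, a fit of only the groups compared cannot be made.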
